A study of Homo sapiens with 12 samples.

Results

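Genes of fatty acid synthesis and desaturation were followed in 501Mel, an established human melanoma cell line with mutant BRAF. They were chosen by name from the count table: SREBF1, ACLY, ACACA, FASN, SCD, FADS1, FADS2, ELOVL6, ELOVL5 and ACSL1, which are 10 of the 56638 gene symbols it lists. All 10 passed the filter on low counts, which kept 16080 symbols. Treatments lasted 48 h and consisted of vehicle (DMSO), 1 µM Vemurafenib (Vem), an inhibitor of mutant BRAF, 10 nM TCDD, an agonist of the aryl hydrocarbon receptor (AhR), or 5 µM Resveratrol (RSV), which the study uses as an AhR antagonist. The other groups received 5 µM RSV with 1 µM Vem (RSV+Vem) or RSV with TCDD (RSV+TCDD), and each of the 6 groups has 2 libraries. For RSV+TCDD the sample labels give 1 nM TCDD, whereas the treatment protocol gives 10 nM, so RSV+TCDD may differ from TCDD in dose as well as in RSV. The cells are 1 line grown in serum, which supplies lipid from outside. The labels do not state that the libraries of a group came from separate cultures, so p-values measure the spread between these libraries, which may be technical.

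Cells build fatty acids in the cytosol from acetyl-CoA, which ATP citrate lyase (ACLY) releases from citrate, acetyl-CoA carboxylase (ACACA) carboxylates to malonyl-CoA, and fatty acid synthase (FASN) condenses into palmitate. ELOVL6 lengthens palmitate, SCD puts in the first double bond, FADS1 and FADS2 desaturate polyunsaturated chains that ELOVL5 lengthens, and ACSL1 joins free fatty acids to coenzyme A. SREBF1 encodes the membrane-bound transcription factor SREBP1, which is released by cleavage when sterols are low and drives many of these genes, so its mRNA level is not its activity.

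Levels are given as CPM, the counts of a gene relative to its library's total, scaled with the TMM factors of edgeR. Differences are log2 fold changes from the quasi-likelihood F test of edgeR, with p-values adjusted over the 16080 symbols after Benjamini and Hochberg, and 0.05 was the threshold for calling a gene. The libraries held 8378655 to 25076925 counts on genes, the lowest in RSV+Vem replicate 2. Spike-in RNA (ERCC) took 0.0310% to 0.0936% of the counts. This share differed between the libraries of a group, at 0.0389% and 0.0903% in RSV+Vem and 0.0630% and 0.0936% in RSV+TCDD. The vehicle libraries differed most from each other (chi-square per degree of freedom 23.6, against 4.81 to 13.4 in the other groups, not adjusted for depth). This spread reaches SREBF1, ACACA, FASN, SCD and ELOVL6 below. RNA integrity numbers were lowest in RSV+Vem, at 8.7 and 8.6. All 9 melanocytic markers were present, and their summed level was 19442 to 20536 CPM in vehicle, 48227 to 51571 with Vem and 11198 to 12394 with RSV. Of 6 adipocyte markers LEP and FABP4 were at 0 in all 12 libraries, and LIPE reached the highest level, 1.69 CPM. Among the markers of other cell types the most abundant were KRT10 (13.7 to 26.0 CPM) and LUM (5.68 to 38.2). The 4 fibroblast markers, LUM among them, summed to 12.9 to 16.3 CPM in vehicle, 31.6 to 39.3 with TCDD and 6.37 to 6.88 with Vem, and their part in the results was not tested. CYP1A1, an AhR target, had group means of 23.3 CPM in vehicle and 143 with TCDD. Its mean was 68.2 CPM under RSV and 42.0 under RSV+TCDD, so RSV alone raised it (1.55, adjusted p = 1.96e-07 by edgeR) and it was lower with RSV+TCDD than with TCDD. DUSP6, a MAPK target, was at 104 CPM in vehicle and 1.25 with Vem. Scaling to the spike-ins instead of TMM lowered the median of all genes by 0.65 (log2) for Vem, 0.51 for TCDD and 0.17 for RSV against vehicle. It also widened the errors: for ELOVL6 with RSV the SE was 0.13 with TMM and 0.45 with spike-ins. A call lost under that scaling can thus go with an estimate of like size. Reads of a bulk sample cannot tell fewer cells of a type from less RNA per cell.

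The bases before the transcription start of members are shown because AhR acts through the core GCGTG, and SREBP1 through sterol regulatory elements or E-boxes beside NF-Y sites. The windows are the 250 bases before the start, from RefSeq on GRCh38.p14, and they matched 9 of the 10 members in 17 windows. FASN had no entry. Searched on both strands were TCACNCCAC (sterol regulatory element), CACGTG (E-box), CCAAT (NF-Y box) and GCGTG, which stand in 0.883%, 6.34%, 32.0% and 32.2% of 35116 such windows. No match overlapped another motif. Printed here are 5 windows, 5′ to 3′, with matches in capitals (ATTGG and CACGC are matches on the other strand): ACLY (chr17:41919023-41919272, minus strand), SCD (chr10:100346983-100347232, plus strand), FADS1 (chr11:61817004-61817253, minus strand), ELOVL6 (chr4:110198616-110198865, minus strand) and ELOVL5 (chr6:53348951-53349200, minus strand).
ACLY: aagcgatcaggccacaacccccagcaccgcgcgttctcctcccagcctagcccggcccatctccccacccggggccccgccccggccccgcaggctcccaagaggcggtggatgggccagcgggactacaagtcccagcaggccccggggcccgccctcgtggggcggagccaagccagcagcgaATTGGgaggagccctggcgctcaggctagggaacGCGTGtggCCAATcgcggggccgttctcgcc
SCD: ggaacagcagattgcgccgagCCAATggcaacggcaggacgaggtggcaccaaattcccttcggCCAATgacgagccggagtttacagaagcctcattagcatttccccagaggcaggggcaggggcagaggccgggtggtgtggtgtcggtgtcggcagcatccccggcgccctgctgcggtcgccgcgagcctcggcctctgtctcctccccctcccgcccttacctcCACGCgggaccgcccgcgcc
FADS1: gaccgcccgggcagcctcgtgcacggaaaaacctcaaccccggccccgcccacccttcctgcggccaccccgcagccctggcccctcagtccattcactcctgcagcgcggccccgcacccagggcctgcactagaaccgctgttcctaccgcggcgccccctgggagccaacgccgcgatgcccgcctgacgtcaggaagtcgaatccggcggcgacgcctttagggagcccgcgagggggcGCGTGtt
ELOVL6: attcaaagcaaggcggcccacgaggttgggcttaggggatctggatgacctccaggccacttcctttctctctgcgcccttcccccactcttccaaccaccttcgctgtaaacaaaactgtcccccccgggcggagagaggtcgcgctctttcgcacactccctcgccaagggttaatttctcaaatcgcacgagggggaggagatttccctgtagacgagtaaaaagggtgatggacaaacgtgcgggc
ELOVL5: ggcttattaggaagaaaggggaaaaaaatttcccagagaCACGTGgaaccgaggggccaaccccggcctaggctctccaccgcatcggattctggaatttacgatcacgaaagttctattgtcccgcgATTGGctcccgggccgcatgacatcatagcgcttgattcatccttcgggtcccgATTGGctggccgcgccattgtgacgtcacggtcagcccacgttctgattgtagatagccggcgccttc
ACLY held CCAAT matches 65 and 23 bases before the start and GCGTG at 31 bases. SCD held CCAAT at 229 and 186 bases and GCGTG at 20. FADS1 held GCGTG at 7 bases, ELOVL5 held CACGTG at 211 and CCAAT at 122 and 68, and ELOVL6 held none of these letters. TCACNCCAC was found only in a window of ACSL1, 242 bases before the start. A match describes letters and is not a binding site, and windows of 1 gene can overlap.

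**Figure D1:**
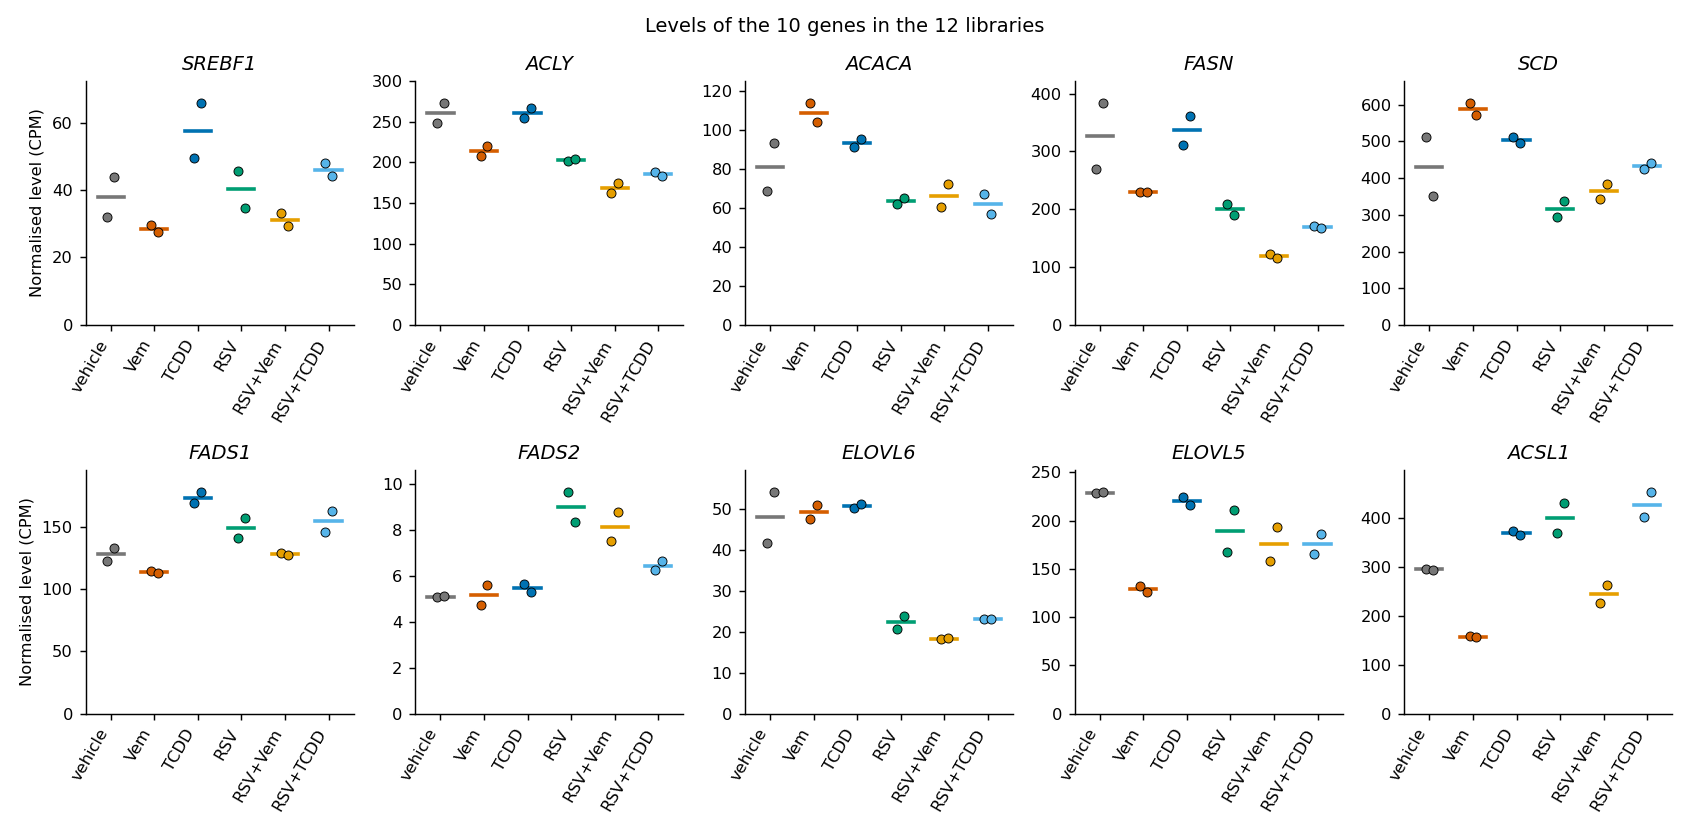
TMM-scaled CPM of the 10 genes in each library, by group. Points are the 2 libraries, bars the group mean, and each panel has its own axis from 0. ELOVL6 and FASN were lower in every library with RSV than in every library without it, an order that held for ELOVL6 but not for FASN when counts were scaled to the spike-ins.

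Per kilobase of merged exons, SCD had group means of 60.1 to 112 CPM per kilobase and was the most abundant member in every group but RSV. ELOVL5 (33.8 to 60.1), ACLY (32.4 to 50.1), ACSL1 (24.1 to 65.7) and FASN (12.8 to 36.1) followed, then FADS1 (11.1 to 16.9). ACACA (4.77 to 8.38), SREBF1 (3.467 to 6.998), ELOVL6 (2.52 to 6.98) and FADS2 (0.481 to 0.852) were lowest. With RSV, ACSL1 was at 61.4 ± 6.73 and SCD at 60.1 ± 5.92 CPM per kilobase (SD, n = 2), within the spread of both. Dividing by the longest transcript moved members by at most 2 places.

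SREBF1 lies on GRCh37 at chr17:17713713-17740316, minus strand. It was at 32.0 and 43.8 CPM in vehicle, 29.5 and 27.6 with Vem, 49.5 and 65.7 with TCDD, 45.6 and 34.8 with RSV, 33.2 and 29.2 with RSV+Vem, and 48.00 and 44.01 with RSV+TCDD. The TCDD pair lay above the vehicle pair, and the Vem pair below it. SREBF1 rose with TCDD by 0.60 (SE 0.16, edgeR adjusted p = 0.0391), and its log2 fold change with Vem was -0.41 (adjusted p = 0.0517 by edgeR). With RSV it was 0.08 (adjusted p = 0.728 by edgeR). No neighbours in the order of the group means differed, from 57.6 CPM with TCDD to 28.5 with Vem. The TCDD call was lost without vehicle replicate 1 (0.39), TCDD replicate 2 (0.38) or either Vem library (0.60), and the TCDD value was 0.081 (adjusted p = 0.904 by edgeR) under spike-in scaling. The Vem value was called without vehicle replicate 1 (-0.62) and without any 1 library of RSV or TCDD (-0.41), and was -0.15 and not called without vehicle replicate 2. SREBF1 shares 556 exonic bases with RAI1 on the other strand.

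ACLY (chr17:40023170-40086795, minus strand) was at 249 and 273 CPM in vehicle and 254 and 267 with TCDD. It was at 208 and 221 with Vem and 202 and 204 with RSV. It was at 163 and 175 with RSV+Vem and 188 and 183 with RSV+TCDD. All 6 libraries with RSV lay below all 6 without. ACLY fell with RSV (-0.36, SE 0.085, edgeR adjusted p = 0.00297), with RSV in the presence of Vem (-0.34, adjusted p = 0.00475 by edgeR) and in the presence of TCDD (-0.49, adjusted p = 3.45e-04 by edgeR). It fell with Vem by 0.28 (adjusted p = 0.00986 by edgeR), and with Vem on top of RSV by 0.27 (adjusted p = 0.0319 by edgeR). In the order of the means only TCDD and Vem differed as neighbours (adjusted p = 0.0109 by edgeR). The Vem call was lost without vehicle replicate 2 (-0.20) or Vem replicate 1 (-0.24). That of RSV+Vem against Vem was lost without Vem replicate 2 (-0.30) or RSV+Vem replicate 1 (-0.29). The call of RSV+Vem against RSV was lost without any 1 library of RSV, RSV+Vem or TCDD (-0.32 to -0.21).

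ACACA (chr17:35441927-35766927, minus strand) was at 69.02 and 93.50 CPM in vehicle, 114 and 104 with Vem, and 91.4 and 95.6 with TCDD. RSV gave 61.9 and 65.1, RSV+Vem 60.5 and 72.1, and RSV+TCDD 67.4 and 56.7. Libraries with RSV were low, overlapping those without only at vehicle replicate 1. ACACA rose with Vem by 0.42 (SE 0.13, edgeR adjusted p = 0.0136), but spike-in scaling turned this to -0.23, and fell with RSV in the presence of Vem by 0.72 (SE 0.14, adjusted p = 5.58e-04 by edgeR). It fell with RSV by 0.36 (adjusted p = 0.0428 by edgeR) and with RSV in the presence of TCDD by 0.59 (adjusted p = 0.00267 by edgeR). The Vem value was 0.22 without vehicle replicate 1 and 0.36 without Vem replicate 1, neither called, and 0.68 without vehicle replicate 2. The RSV call was lost without vehicle replicate 2 (-0.12), without either RSV library (-0.40 and -0.32) and without any 1 library of Vem or TCDD (-0.36), and was -0.56 without vehicle replicate 1. No neighbours in the order of the means differed.

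FASN (chr17:80036214-80056170, minus strand) was at 270 and 384 CPM in vehicle, 312 and 362 with TCDD, and 230 and 231 with Vem. With RSV it was at 209 and 190, with RSV+TCDD at 170 and 168, and with RSV+Vem at 122 and 116. The 6 libraries with RSV were again the lowest of the 12, RSV+Vem the lowest of all. FASN was 1.64-fold lower with RSV (log2 fold change -0.71, SE 0.13, edgeR adjusted p = 3.80e-04), 1.93-fold lower with RSV+Vem than with Vem (adjusted p = 3.09e-05 by edgeR) and 1.99-fold lower with RSV+TCDD than with TCDD (adjusted p = 2.72e-05 by edgeR). It fell with Vem by 0.51 (SE 0.13, adjusted p = 0.00309 by edgeR) and with Vem on top of RSV by 0.75 (SE 0.13, adjusted p = 6.25e-04 by edgeR). The order of the means had steps between vehicle and Vem and between RSV+TCDD and RSV+Vem (adjusted p = 0.00972 by edgeR). Without vehicle replicate 2, the higher of that pair, the Vem value was -0.21 and not called, and the RSV value was -0.43 and called.

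SCD (chr10:102106990-102124583, plus strand) was at 511 and 350 CPM in vehicle, 604 and 573 with Vem, and 513 and 496 with TCDD. The RSV libraries held 293 and 337 CPM, RSV+Vem 342 and 385, and RSV+TCDD 425 and 441. The Vem libraries were the highest and the RSV libraries the lowest group, and vehicle spanned much of the range between. SCD rose with Vem by 0.45 (SE 0.13, edgeR adjusted p = 0.00861), but spike-in scaling turned this to -0.20, and fell with RSV by 0.45 (SE 0.13, adjusted p = 0.0122 by edgeR). It fell with RSV in the presence of Vem by 0.70 (adjusted p = 6.07e-04 by edgeR). With RSV+TCDD against TCDD the value was -0.22 (adjusted p = 0.199 by edgeR). TCDD on top of RSV gave 0.46 (adjusted p = 0.0516 by edgeR), a value that DESeq2 called (adjusted p = 0.0220), that edgeR called without any 1 library of vehicle or RSV+Vem (0.46), and that was -0.56 under spike-in scaling. Without vehicle replicate 1 the RSV value was -0.16 and not called, the Vem value 0.74 and called, and the TCDD value 0.53 against 0.23 and called. Without vehicle replicate 2 the Vem value was 0.22 and not called, the TCDD value -0.025 and not called, and the RSV value -0.70 and called. Neither the Vem nor the RSV call held without the first library of its own treated group (0.41 and -0.36).

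On chr11 the annotated span of FADS1 (61567099-61596790, minus strand) lies within that of FADS2 (61560452-61634826, plus strand), and the genes share 490 exonic bases on opposite strands. FADS1 was at 123 and 133 CPM in vehicle, 114 and 113 with Vem, 169 and 178 with TCDD, 141 and 157 with RSV, 129 and 127 with RSV+Vem, and 146 and 162 with RSV+TCDD. The TCDD libraries were the highest and the Vem libraries the lowest. FADS1 rose with TCDD by 0.44 (SE 0.092, edgeR adjusted p = 0.00889), but spike-in scaling turned this to -0.071. With RSV it was at 0.22 (adjusted p = 0.0631 by edgeR), a value called without RSV replicate 1 (0.30) and at 0.14 and not called without RSV replicate 2, and with Vem at -0.17 (adjusted p = 0.140 by edgeR). The TCDD call was lost without vehicle replicate 1 (0.38, adjusted p = 0.0591 by edgeR), TCDD replicate 1 (0.48) or TCDD replicate 2 (0.40). No neighbours in the order of the means differed for either gene.

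FADS2, the desaturase that acts before FADS1, was the least abundant member, at 5.06 and 5.09 CPM in vehicle, 4.72 and 5.61 with Vem, and 5.64 and 5.29 with TCDD. Levels were 9.64 and 8.35 CPM with RSV, 7.50 and 8.76 with RSV+Vem, and 6.23 and 6.64 with RSV+TCDD. All 6 libraries with RSV lay above all 6 without, the reverse of FASN and ACLY. FADS2 was 1.77-fold higher with RSV (log2 fold change 0.82, SE 0.16, edgeR adjusted p = 9.45e-04) and 1.56-fold higher with RSV+Vem than with Vem (adjusted p = 0.0107 by edgeR). RSV+TCDD against TCDD gave 0.23 (adjusted p = 0.305 by edgeR), and RSV+TCDD against RSV -0.48 (adjusted p = 0.0904 by edgeR). The call of RSV+Vem against Vem was lost without Vem replicate 1 (0.52) or RSV+Vem replicate 2 (0.54), and FADS2 shares 49 exonic bases with FEN1 on the same strand.

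ELOVL6 (chr4:110967002-111120355, minus strand) was at 41.9 and 54.3 CPM in vehicle, 47.7 and 51.0 with Vem, and 50.2 and 51.3 with TCDD. With RSV it was at 20.8 and 23.8, with RSV+Vem at 18.3 and 18.4, and with RSV+TCDD at 23.1 and 23.1. The 12 libraries split into a low set of 18.3 to 23.8 CPM with RSV and a high set of 41.9 to 54.3 CPM without. ELOVL6 was 2.16-fold lower with RSV (log2 fold change -1.11, SE 0.13, edgeR adjusted p = 7.53e-06), 2.69-fold lower with RSV+Vem than with Vem (adjusted p = 8.14e-07 by edgeR) and 2.20-fold lower with RSV+TCDD than with TCDD (adjusted p = 6.38e-06 by edgeR). Its values with Vem (0.04, 95% interval -0.22 to 0.30) and TCDD (0.08, -0.18 to 0.33) were not called. The only neighbours that differed in the order of the means were vehicle at 48.1 CPM and RSV+TCDD at 23.1 (adjusted p = 1.07e-05 by edgeR).

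ELOVL5 (chr6:53132196-53213977, minus strand) was at 229 and 230 CPM in vehicle, 225 and 216 with TCDD, and 132 and 126 with Vem. The RSV libraries were at 167 and 211 CPM, those of RSV+Vem at 158 and 194, and those of RSV+TCDD at 165 and 186. The Vem libraries lay below all others, and the libraries with RSV lay between. ELOVL5 was 1.78-fold lower with Vem (log2 fold change -0.83, SE 0.12, edgeR adjusted p = 1.74e-05). With RSV+Vem it rose over Vem by 0.45 (SE 0.12, adjusted p = 0.00664 by edgeR), and with RSV+TCDD it fell against TCDD by 0.33 (adjusted p = 0.0333 by edgeR). RSV alone gave -0.28 (adjusted p = 0.0654 by edgeR), called without RSV replicate 2 (-0.46) or either RSV+Vem library (-0.28), and -0.12 and not called without RSV replicate 1. In the order of the means only RSV+TCDD and Vem differed as neighbours (adjusted p = 0.00420 by edgeR). The rise over Vem was 0.30 without RSV+Vem replicate 2 and 0.41 without Vem replicate 2, neither called, and the fall against TCDD lost its call without either TCDD library (-0.35 and -0.30) or RSV+TCDD replicate 1 (-0.25).

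ACSL1 (chr4:185676749-185747972, minus strand) was at 296 and 294 CPM in vehicle, 158 and 156 with Vem, and 374 and 366 with TCDD. With RSV it was at 369 and 431, with RSV+Vem at 226 and 262, and with RSV+TCDD at 401 and 453. The Vem libraries were the lowest, RSV+Vem next, and every other library lay above both vehicle libraries. ACSL1 was 1.88-fold lower with Vem (log2 fold change -0.91, SE 0.099, edgeR adjusted p = 1.15e-06) and 1.64-fold lower with RSV+Vem than with RSV (adjusted p = 9.05e-05 by edgeR). It rose with RSV by 0.44 (SE 0.098, adjusted p = 0.00217 by edgeR) and with RSV+Vem over Vem by 0.63 (adjusted p = 1.15e-04 by edgeR). With TCDD it was at 0.32 (adjusted p = 0.0582 by edgeR), a value that DESeq2 called (adjusted p = 0.0437), that edgeR called without either RSV library (0.33), and that was -0.18 under spike-in scaling. Vehicle lay above RSV+Vem (adjusted p = 0.0277 by edgeR) and RSV+Vem above Vem, while the other neighbours did not differ.

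The comparisons of Vem, TCDD and RSV with vehicle share the vehicle libraries. Against vehicle, Vem moved the members in both directions. ELOVL5, ACSL1, FASN and ACLY fell and ACACA and SCD rose, although the rises turned negative under spike-in scaling (-0.23 and -0.20). Of the 10 members 2 were called higher, where 25.4% of all tested genes were, and 4 lower, where 27.0% were. These counts are 6 of 10 members, near the 52.4% of all genes called in either direction. The median log2 fold change was -0.23 over the members and -0.03 over all genes.

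Against vehicle, TCDD changed SREBF1 and FADS1, both higher, although neither was called under spike-in scaling, with SREBF1 at 0.081 and FADS1 at -0.071. These are 2 of 10 members, against 4.50% of all genes called higher, and 0 were called lower, against 1.90% of all genes. By unadjusted p 3 members passed 0.05, and DESeq2 called 3, ACSL1 being the third. FASN was at 0.04 (95% interval -0.22 to 0.31) and ACLY at -0.00 (-0.18 to 0.18). The median was 0.16 over the members and -0.00 over all genes.

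Against vehicle, RSV lowered ELOVL6, FASN, SCD, ACLY and ACACA and raised FADS2 and ACSL1. These are 5 of 10 members lower, against 20.4% of all genes, and 2 higher, against 20.5%. The median was -0.32 over the members and -0.00 over all genes. No member was called by edgeR under spike-in scaling: ELOVL6 was at -1.29 (adjusted p = 0.105 by edgeR) and FASN at -0.87 (adjusted p = 0.358 by edgeR), and all 7 kept their sign.

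**Figure D2:**
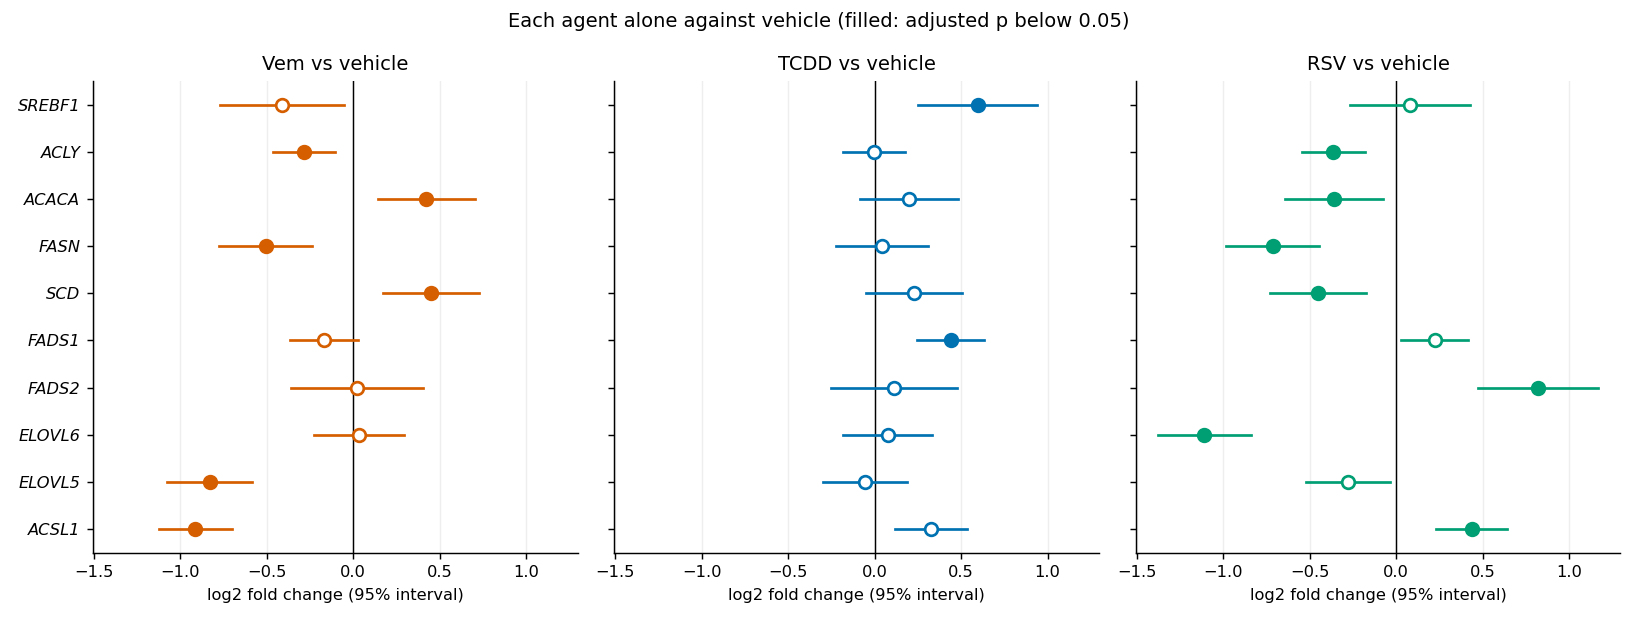
Log2 fold change of each gene with Vem, TCDD or RSV against vehicle, with 95% intervals from edgeR. Filled points have an adjusted p below 0.05. ELOVL6 stands lowest with RSV (-1.11) and ACSL1 lowest with Vem (-0.91), and the rises of ACACA and SCD with Vem and of FADS1 with TCDD turned negative under spike-in scaling.

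RSV was also compared with and without each ligand. In the presence of Vem, ELOVL6, FASN, ACACA, SCD and ACLY fell, and ACSL1, FADS2 and ELOVL5 rose. These are 5 of 10 members called lower, against 18.7% of all genes, and 3 called higher, against 19.2%. The median was -0.10 over the members and 0.03 over all genes. In the presence of TCDD, ELOVL6, FASN, ACACA, ACLY and ELOVL5 fell, 5 of 10 members against 19.1% of all genes. None was called higher by edgeR, against 18.6% of all genes: ACSL1, at 0.21 (adjusted p = 0.106 by edgeR), had an unadjusted p under 0.05, and DESeq2 called the same number, 5 members, in all. The median was -0.32 over the members and -0.01 over all genes. The TCDD dose may also differ between RSV+TCDD and TCDD, as stated above.

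**Figure D3:**
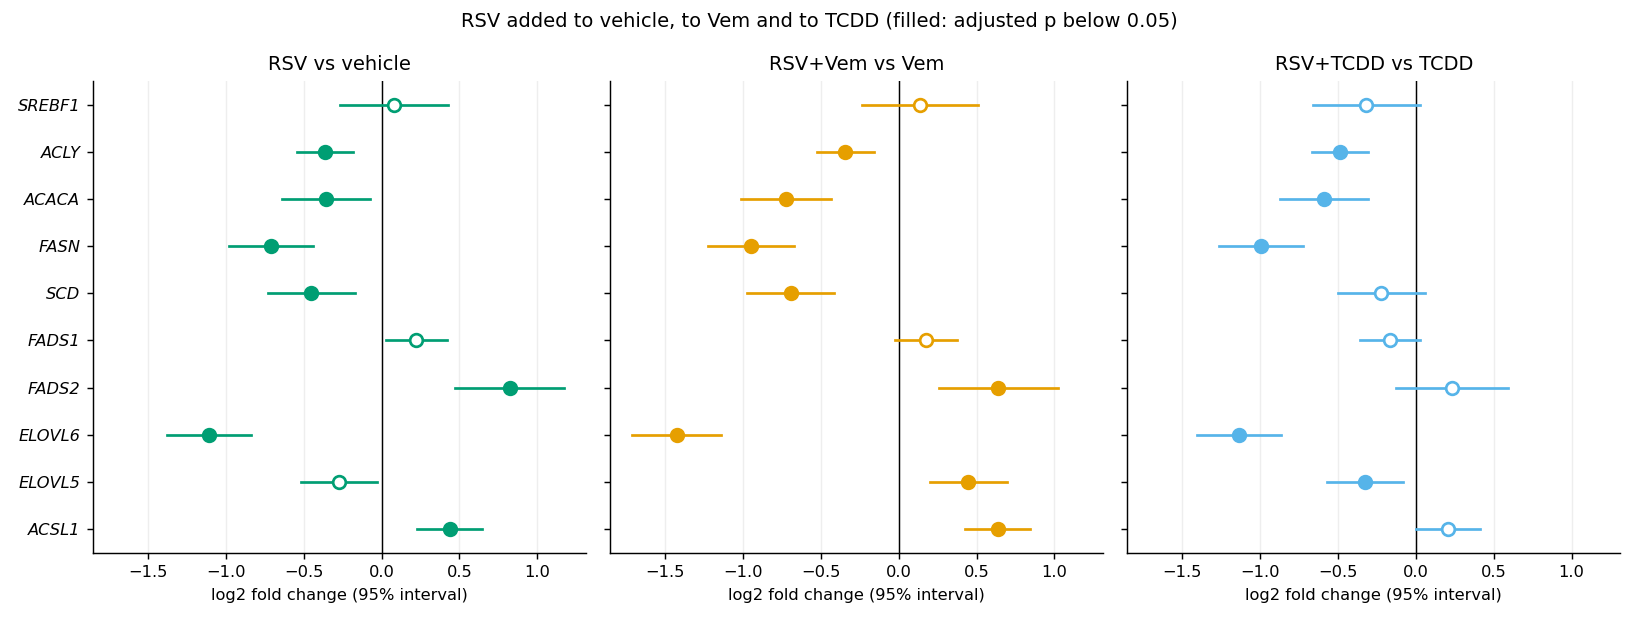
Log2 fold change of each gene with RSV against vehicle, with RSV+Vem against Vem and with RSV+TCDD against TCDD, with 95% intervals from edgeR. Filled points have an adjusted p below 0.05. ELOVL6 lay at -1.11, -1.43 and -1.14 and FASN at -0.71, -0.95 and -0.99.

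The 3 comparisons use separate libraries on both sides, apart from the shared estimate of the spread. ELOVL6, FASN, ACLY and ACACA were called lower in each of them. Set against each other as 6 libraries with RSV and 6 without, ELOVL6 (18.3 to 23.8 against 41.9 to 54.3 CPM), FASN (116 to 209 against 230 to 384) and ACLY (163 to 204 against 208 to 273) were lower in all, where 6.56% of all genes were. FADS2 was higher in all (6.23 to 9.64 against 4.72 to 5.64), where 7.03% of all genes were. Under spike-in scaling the ranges of FASN, ACLY and FADS2 overlapped, and those of ELOVL6, SCD and ACACA did not, all 3 lower with RSV. The share of all genes lower in this way was not counted under that scaling. It lowered the median of all genes by 0.17 for RSV against vehicle, 0.04 for RSV+Vem against Vem and 0.69 for RSV+TCDD against TCDD.

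On top of RSV, Vem lowered FASN, ACSL1 and ACLY. These are 3 of 10 members, against 13.1% of all genes called lower. None was called higher by edgeR or DESeq2, against 11.2% of all genes, and none that was higher had an unadjusted p under 0.05. The median was -0.24 over the members and 0.00 over all genes. ELOVL5 was at -0.11 (95% interval -0.35 to 0.14) with Vem on top of RSV, and at -0.83 with Vem alone.

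On top of RSV, TCDD gave no call among the members by edgeR, against 3.61% of all genes called higher and 2.08% lower. SCD and FADS2 had an unadjusted p under 0.05, and DESeq2 called SCD. The TCDD dose may also have been lower than without RSV, because the sample labels give 1 nM for RSV+TCDD. SREBF1 was at 0.20 (95% interval -0.15 to 0.54) and FADS1 at 0.05 (-0.14 to 0.24), the genes that TCDD raised without RSV, neither of which it raised under spike-in scaling (0.081 and -0.071). Under spike-in scaling 5 of 10 members were called lower with RSV+TCDD than with RSV (FADS2, FASN, ACLY, ELOVL5 and ACACA). That scaling lowered the median of all genes by 1.03 in this comparison. Its calls over all genes also rose and were nearly all lower, with the counts given below under the dependence on processing. The fall was thus not particular to the members.

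The difference between the effect of Vem with RSV and without it was tested as an interaction. ELOVL5 alone was called, at 0.72 (SE 0.16, 95% interval 0.37 to 1.07, edgeR adjusted p = 0.00501). It is 1 of 10 members called higher, against 12.0% of all genes, and 0 were called lower, against 10.7%. By unadjusted p and by DESeq2 the count was also 1. Leaving out each library kept the ELOVL5 value between 0.57 and 0.90 and called, and it was 0.81 and not called under spike-in scaling. Without vehicle replicate 2, ACACA (-0.62), FASN (-0.53) and ELOVL6 (-0.53) were also called, and without vehicle replicate 1 SCD was (-0.54), against -0.37, -0.24, -0.32 and -0.24 with all libraries. The same test for TCDD called no member, against 0.00622% of all genes called higher and 0.118% lower. The possible difference in TCDD dose applies to this test too. FADS2 was at -0.59, SREBF1 at -0.40 and FADS1 at -0.39, with 2 members, FADS1 and FADS2, under an unadjusted p of 0.05 and 0 called by DESeq2.

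**Figure D4:**
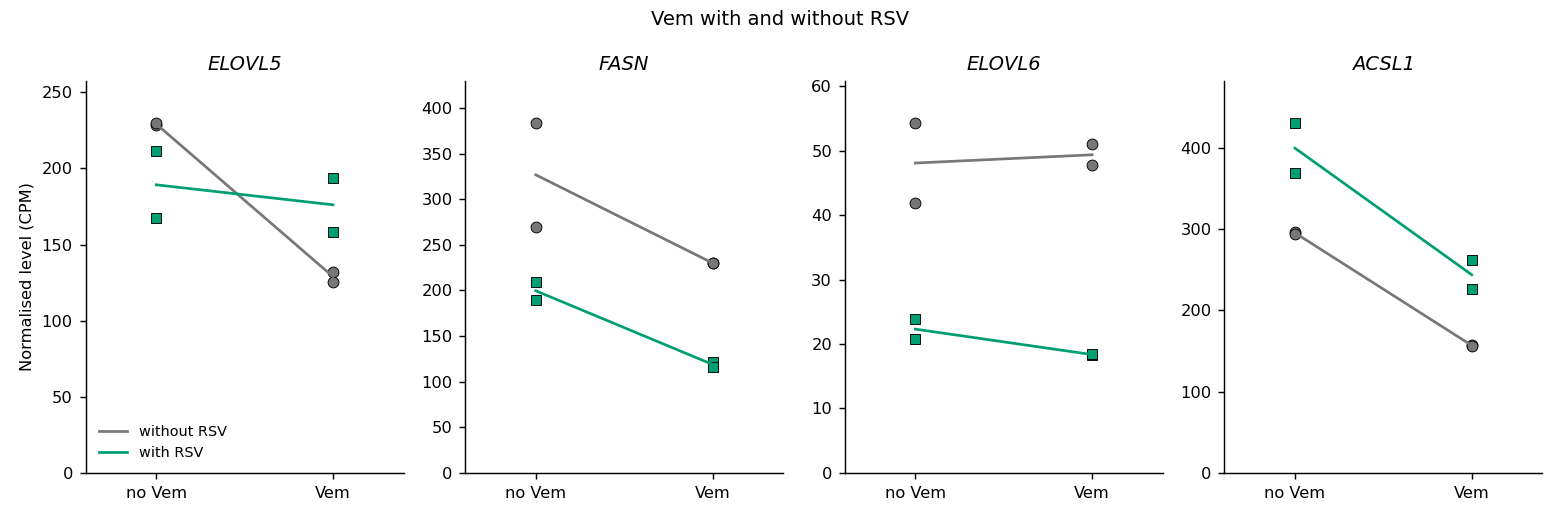
TMM-scaled CPM of ELOVL5, FASN, ELOVL6 and ACSL1 in the vehicle, Vem, RSV and RSV+Vem libraries. Points are libraries and lines join group means. The ELOVL5 lines differ in slope (interaction 0.72), while the interactions of the other 3 genes were not called.

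Across the 12 libraries, log2 CPM of ACLY and FASN had a Pearson r of 0.97, ELOVL6 and FASN 0.88, and ACACA and ELOVL6 0.85. FADS1 had an r of 0.84 with SREBF1 and 0.85 with ACSL1, and FADS2 had -0.86 with ELOVL6. These values describe 12 libraries that share treatments and depth, with 2 libraries per group. The tested genes most like SREBF1 were EMILIN1 (0.93), RNASET2 and ISYNA1 (0.92 each). Those most like FASN were EWSR1 (0.98), MT-TC (0.98) and RNF145 (0.96), and those most like SCD were ATP10A (0.94), PPARA (0.93) and ADRBK2 (0.93).

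Genes around the members were counted in lists written from textbook knowledge. With Vem, 25.4% of all tested genes were called higher and 27.0% lower, and 18 of 23 tested genes of fatty acid oxidation were called, all higher, with a median of 0.72 against -0.03 over all genes. ACADS (2.11) and DECR1 (1.67), enzymes of mitochondrial chain breakdown, and CPT1A (1.08), which lets fatty acids into mitochondria, rose. Under spike-in scaling the list's median was 0.07, against -0.68 over all genes, and 1 gene was called. In the supply of acetyl-CoA, malonyl-CoA and NADPH 9 of 16 rose and 2 fell, led by ACSS2 (1.44), which makes acetyl-CoA from acetate. The median of this list turned from 0.40 to -0.25 under spike-in scaling, against -0.68 over all genes. INSIG1 (-1.33) and INSIG2 (-1.47), which hold SREBP in the membrane, fell, and INSIG2 was at -0.75 and still called without vehicle replicate 1. Among genes of activation and uptake 2 of 11 rose and 5 fell, among them FABP7 (-3.55), ACSL5 (-1.62), ACSL3 (-1.26) and ACSL4 (-0.83). In the elongation cycle 2 of 10 rose and 3 fell, shares near those of all genes, with ELOVL2 at -1.57, and without Vem replicate 2 1 rose and 1 fell. The list of other desaturases also holds CYB5R3 and CYB5A, which are not themselves desaturases. In it 2 of 5 tested genes rose, SCD5 (0.66) and CYB5R3 (0.58). Under spike-in scaling SCD5 was at 0.01 and CYB5R3 at -0.07, and neither was called. The list's median then turned from 0.13 to -0.52, against -0.68 over all genes.

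With TCDD, 4.50% of all genes were called higher and 1.90% lower. Of the SREBP regulators 2 of 11 rose, INSIG1 (0.76) and SREBF2 (0.70), the paralog of SREBF1. Fatty acid oxidation had 3 of 23 genes higher, ETFB (0.71) among them, and 1 lower, CPT1A (-0.87), with a list median of 0.05. Under spike-in scaling INSIG1 was at 0.26, SREBF2 at 0.19, ETFB at 0.20 and CPT1A at -1.38, and none was called.

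With RSV, 20.5% of all genes were called higher and 20.4% lower. ELOVL4 (1.19) and ELOVL7 (0.99) rose while ELOVL6 fell, 3 of 10 tested genes of the elongation cycle being called, all higher. Fatty acid oxidation had 10 of 23 genes higher and 2 lower, with ACADVL at 1.17. ACSS2 rose by 0.86 and NR1H3, a nuclear receptor that acts on SREBF1, by 1.36. NR1H3 was also called higher with Vem (1.30) and with TCDD (0.55), but with neither under spike-in scaling (0.65 and 0.04). Activation and uptake had 1 of 11 higher and 4 lower (2 without RSV replicate 1), with SLC27A5 at -1.10 and ACSL3 at -0.62, while ACSL1 rose. Mitochondrial fatty acid synthesis had 3 of 9 called, all lower. Under spike-in scaling no gene of these lists was called, and the elongation cycle's median turned from 0.16 to -0.01, against -0.17 over all genes.

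**Figure D5:**
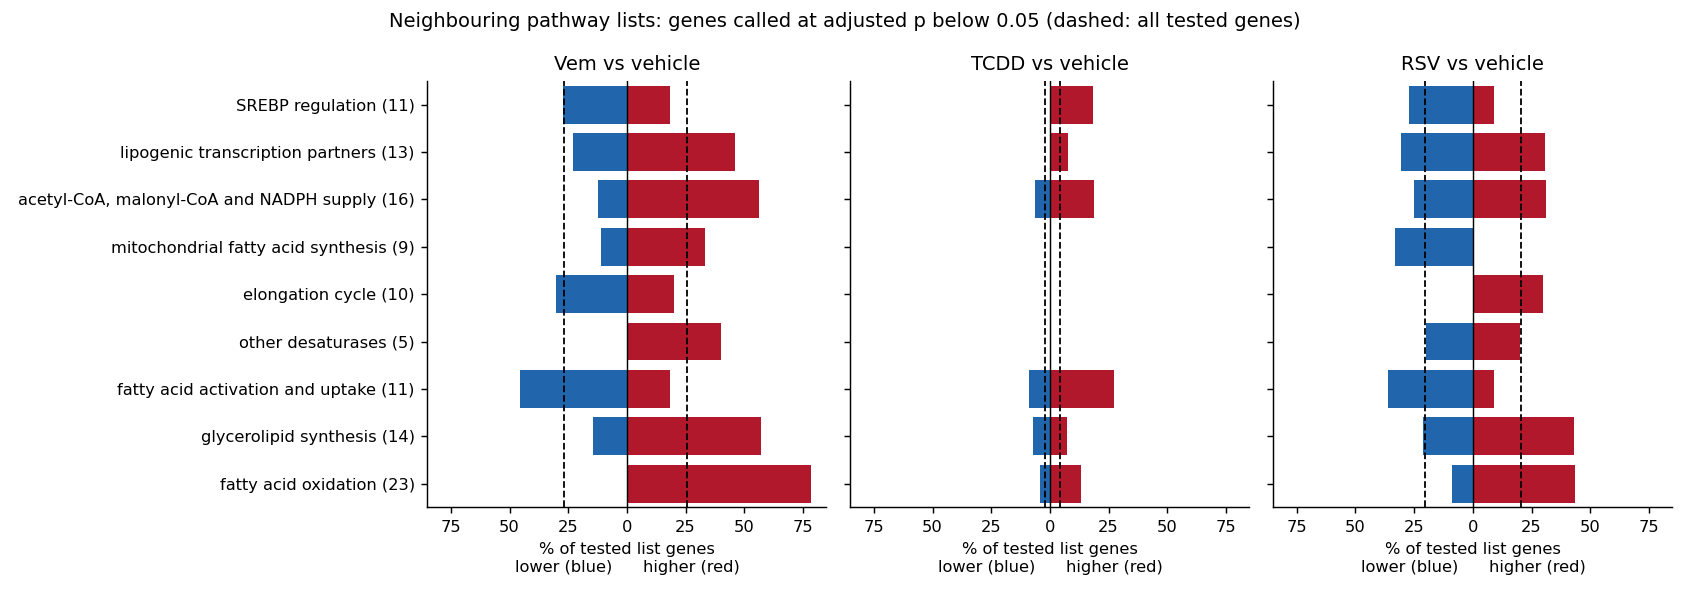
Share of the tested genes in each list called higher (red) or lower (blue) with Vem, TCDD or RSV against vehicle, in percent. Dashed lines give the share over all 16080 tested genes. Fatty acid oxidation with Vem stands highest, 18 of 23, of which 1 was called when counts were scaled to the spike-ins (list median 0.07, all genes -0.68).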

How the data were processed

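RNA of 12 libraries of 501Mel cells, 6 groups of 2, was analysed from the deposited counts. Per the labels and the study's methods, the authors made stranded mRNA libraries, aligned read pairs with STAR 2.4.0a to hg19 and counted them per gene name with featureCounts (Subread 1.5.0-p3). The study's methods give a strand-specific setting for that counting. The deposited values are raw counts without normalization, and the annotation release is not given in the sources used here. Positions are from GENCODE on GRCh37. The table's 96 control sequences (92 ERCC) were left out of the tests. In 27 pairs of genes nested on opposite strands, the inner gene had a median of 0.00149 of the outer gene's counts per base. Counting that ignored strand could also leave reads shared by 2 genes uncounted, so this ratio cannot by itself show whether counts kept to strand.

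edgeR 4.0.16 in R 4.3.3 fitted 1 term per group to all 12 libraries (TMM factors 0.890 to 1.08, filterByExpr by group, quasi-likelihood F test, Benjamini-Hochberg adjustment over 16080 genes, threshold 0.05). Sharing 1 estimate of the spread across groups assumes that they vary alike, and with 2 libraries a group an exact permutation test of 1 gene cannot reach 0.05. The alternatives were DESeq2 1.42.0, RLE factors, spike-in scaling, no filter, at least 10 counts in every library, fits of the compared libraries alone, the replicate number as a block, an adjusted p below 0.01, leaving out each library and, chosen after seeing the data, a robust quasi-likelihood fit. The members, lists, naming rules and alternatives were chosen with earlier results of these data known. Named beside the members were the 3 most correlated genes of SREBF1, FASN and SCD and, from each list, genes with the largest called changes (at least 50 counts in the higher group, groups not overlapping) or with a set place in the pathway. No set test was run, and 1 list is not reported here. The steps were tested on simulated data. Plots were made in Python 3.11.15 (matplotlib 3.10.9).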

Additional observations from a re-analysis of the deposited data

Results flagged for a closer look

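The effect of Vem on ELOVL5 differed with and without RSV by a test of the difference itself: the interaction was 0.72 on the log2 scale (SE 0.16, edgeR adjusted p = 0.00501). ELOVL5 was at 229 and 230 CPM in vehicle and 132 and 126 with Vem, and at 167 and 211 with RSV and 158 and 194 with RSV+Vem. Vem thus went with a difference of -0.83 without RSV and of -0.11 with it. The RSV libraries differed from each other by more than the vehicle and Vem libraries did. Of all tested genes, 12.0% were called higher in this interaction and 10.7% lower. Under spike-in scaling the ELOVL5 interaction was 0.81 and not called.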

How the results depend on the processing

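Of 32 member calls, 6 held under all 21 alternatives: ELOVL5 and ACSL1 with Vem, ELOVL6 with RSV+Vem against Vem, and ACACA, FASN and ELOVL6 with RSV+TCDD against TCDD. Without some 1 library 13 were lost, and 25 under spike-in scaling, which rests on 0.0310% to 0.0936% of the counts. Of 1890 member values under the alternatives, 1772 kept direction and side of the threshold, 72 lost the call, 43 gained one and 3 reversed: ACACA (-0.23) and SCD (-0.20) with Vem and FADS1 with TCDD (-0.071), all under spike-in scaling. That scaling gave 3 member calls for Vem, 0 for TCDD, 0 for RSV, 0 for RSV+Vem against RSV, 1 for RSV+Vem against Vem, 5 for RSV+TCDD against RSV, 3 for RSV+TCDD against TCDD and 0 for the RSV by Vem interaction. For RSV+TCDD against RSV, DESeq2, RLE factors, no filter and only the libraries compared each gave 1 call (SCD). An adjusted p below 0.01 left 1 for TCDD. Leaving out each library gave 3 to 7 member calls for Vem, 0 to 3 for TCDD, 6 to 8 for RSV, 2 to 3 for RSV+Vem against RSV, 6 to 8 for RSV+Vem against Vem, 0 to 1 for RSV+TCDD against RSV, 4 to 5 for RSV+TCDD against TCDD, 1 to 4 for the RSV by Vem interaction and 0 for the RSV by TCDD interaction. The lowest counts for Vem and TCDD came without vehicle replicate 2 and TCDD replicate 2. The causes were not tested.

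The labels do not say that a replicate number marks a shared culture or day. Differences between replicates 1 and 2 correlated across genes with r between -0.12 and 0.15 in 15 pairs of groups over all tested genes, and between -0.50 and 0.53 over 9890 genes at a mean of 10 CPM or more. The 3 pairs among RSV, RSV+Vem and RSV+TCDD were all positive (0.12 to 0.15, and 0.37 to 0.53), while vehicle and RSV gave -0.042 and -0.12. With the replicate number as a block, the member calls were 6 for Vem, 3 for TCDD and 9 for RSV, the additions being ACSL1 (TCDD), FADS1 and ELOVL5 (RSV). It changed no other member call.

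Over all genes, spike-in scaling changed the calls from 8423 to 3770 for Vem (196 higher, 3574 lower), from 1030 to 10 for TCDD (2 and 8), from 6578 to 374 for RSV (261 and 113), from 3920 to 483 for RSV+Vem against RSV (19 and 464), from 6091 to 391 for RSV+Vem against Vem (337 and 54), from 916 to 6446 for RSV+TCDD against RSV (1 and 6445), from 6068 to 1806 for RSV+TCDD against TCDD (162 and 1644), and from 3652 to 6 and 20 to 1 for the interactions with Vem and TCDD. DESeq2 gave 62 for the last. No filter gave 1585 for TCDD, 1463 for RSV+TCDD against RSV and 232 for the interaction with TCDD. Only the libraries compared gave 403 and 7 for the last 2. An adjusted p below 0.01 left 372 for TCDD, 4296 for RSV, 2136 for RSV+Vem against RSV, 4038 for RSV+Vem against Vem, 270 for RSV+TCDD against RSV, 3845 for RSV+TCDD against TCDD, 1827 and 3 for the interactions. Without 1 library the lowest counts were 270 for TCDD, 1974 for RSV+Vem against RSV, 277 for RSV+TCDD against RSV, 3465 for RSV+TCDD against TCDD, 2363 for the interaction with Vem, and 3 to 168 for that with TCDD.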

Other observations

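With TMM scaling, fatty acid oxidation genes rose with Vem both without RSV and with it, but less with it. The list's median was 0.72 for Vem against vehicle and 0.25 for RSV+Vem against RSV. Against Vem alone, RSV+Vem gave 11 of 23 tested genes of the list called, all lower, where 18.7% of all genes were, with a median of -0.33 against 0.03 over all genes, and the RSV by Vem interaction called 14 of 23, all lower, where 10.7% of all genes were, with a median of -0.55 against 0.02. Without Vem replicate 2 the counts were 4 and 10, the lowest with any 1 library left out. Vem on top of RSV gave 8 of 23 genes of the list higher and 0 lower, where 11.2% of all genes were called higher and 13.1% lower. DECR1 was at 37.2 CPM in vehicle, 119 with Vem, 35.5 with RSV and 55.1 with RSV+Vem (group means), an interaction of -1.04 (edgeR adjusted p = 1.88e-04). ACADS was at 24.8, 107, 25.5 and 58.5 CPM in the same order, an interaction of -0.91 (edgeR adjusted p = 0.00116). FABP7, a fatty acid binding protein, was at 36.4, 3.13, 26.7 and 9.75 CPM, an interaction of 2.10 (edgeR adjusted p = 1.57e-05). Under spike-in scaling the list's median for RSV+Vem against Vem was -0.37 and for the interaction -0.44, against -0.02 and 0.15 over all genes, and no gene of the list kept its call in edgeR. For RSV+Vem against RSV the list's median was then -0.29, against -0.52 over all genes. DECR1, ACADS and FABP7 were chosen after their values were seen.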
